A study of Mus musculus with 42 samples.

Results

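The step from mesendoderm towards anterior endoderm was followed in mouse embryonic stem cells (ESCs) of a dual reporter line, which carries GFP in the Gsc locus and RedStar in the Hhex locus. GSC is a homeodomain protein of the primitive streak and mesendoderm, and HHEX a homeodomain protein of the definitive endoderm. Cells were differentiated as a monolayer towards anterior definitive endoderm (ADE) and sorted by reporter fluorescence. The comparison is of d5 Ghigh cells, sorted on day 5 for high GSC reporter signal, with d4 G+ cells, sorted on day 4 as positive for the same reporter. Its members were chosen by their labels alone and are 6 of the 42 arrays of the series, 3 independent experiments for each of the 2 populations. Both populations are untreated, carry the same reporters and come from the same differentiation regimen, whose cytokines and growth factors are staged in time. They differ in the day, with the stage of the regimen reached, and in the position of the sorting gate together. The d5 Ghigh gate was negative for the HHEX reporter, according to the study. The line is a single reporter line, and a sort on 1 reporter sets the makeup of each population.

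In the embryo, cells that leave the anterior primitive streak under strong Nodal signalling lose the streak programme, in which T (Brachyury) and the Wnt ligands of the streak are expressed, and switch on endoderm transcription factors such as SOX17, FOXA and HHEX. The anterior endoderm is known for secreting antagonists of Wnt and Nodal, among them Cerberus (Cer1), Dickkopf and the secreted frizzled-related proteins, which protect the overlying tissue from posterior signals. During gastrulation the zinc finger repressor SNAI1 drives the loss of epithelial adhesion in the streak.

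Each value is a log2 intensity, the brightness of an Agilent one-colour probe after the authors' background correction and quantile normalisation, so levels of different probes cannot be set against each other and only differences between populations are read. Calls come from a limma fit over all 42 arrays, with Benjamini-Hochberg adjustment over 55681 probes, in which 1 probe of a gene or more had to reach an adjusted p of 0.01 or lower together with a log2 fold change of 1.5 or more in size. Of the 42 arrays 33 are of the untreated series. The others belong to an experiment with an inhibitor of the histone methyltransferase EZH2 at 2.5 µM, with its controls. An exact permutation test of 3 arrays against 3 cannot go below p = 0.1. The 6 arrays had between 28301 and 40398 probes that the scanner files mark as well above background. Replicate 1 of d5 Ghigh had the most of them. Its deviations from the mean of its group had r = -0.81 with those of replicate 3 (across all 55681 probes, which are not independent). Deviations of 3 arrays from their own mean cancel out, so a negative r between them arises without opposed replicates. Replicates 1 of both populations shared a slide, as did replicates 2, while replicates 3 lay on separate slides.

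Of 20972 genes tested, 154 were higher in d5 Ghigh than in d4 G+ cells (0.734%) and 96 were lower (0.458%). The endoderm regulators Sox17, Hnf4a, Hhex and Foxa1 and the antagonists Cer1, Sfrp1 and Sfrp5 were among the genes that rose, and T, Snai1, Mesp2 and the ligands Wnt5b, Wnt6 and Wnt8a among those that fell. The median log2 fold change was 1.96 over the genes that rose and -2.04 over those that fell. In bulk samples such as these, fewer cells of a type and less RNA per cell cannot be told apart. All 154 genes that rose were higher on each d5 Ghigh array than on every d4 G+ array, and 95 of the 96 genes that fell were lower in all 9 such pairs. Over all genes, 12.5% were higher and 14.3% lower in all 9 pairs without any threshold.

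The counts rest on the spread shared over all 42 arrays and on single arrays. With the 33 arrays of the untreated series alone, limma called 143 genes higher and 80 lower. With the 6 arrays fitted alone, limma called 6 genes higher and 0 lower at the same thresholds, with 6680 probes at an unadjusted p under 0.05, and with the replicate number as a block in those 6 arrays 22 and 14. Without d5 Ghigh replicate 3 the count of higher genes was 107, and without d5 Ghigh replicate 1 the count of lower genes was 61. With replicates 1 and 2 alone of both populations, which shared slides, 75 genes were higher and 46 lower, a choice made after seeing the data. The median difference of the genes that rose was 1.82 within the slide of replicate 1, 1.83 within that of replicate 2 and 2.57 between the 2 slides of replicate 3. For the genes that fell these medians were -1.91, -2.10 and -2.23. The median SD of the genes that rose was 0.56 over the d5 Ghigh arrays and 0.27 over the d4 G+ arrays, against 0.20 in either population over all genes, and 129 of the 154 were highest on d5 Ghigh replicate 3.

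The sorted gene itself comes first because it checks the labels. Gsc stood at 11.55, 11.74 and 11.85 on the d4 G+ arrays and at 12.23, 12.58 and 14.06 on the d5 Ghigh arrays. It was higher on every d5 Ghigh array, with a log2 fold change of 1.24 ± 0.47 (SE, n = 3 and 3) that did not pass the test (limma adjusted p = 0.161). Both gates select for the Gsc reporter, and the day and the gate cannot be told apart here. Hhex stood at 7.53, 7.85 and 7.99 in d4 G+ cells and at 9.71, 10.00 and 11.79 in d5 Ghigh cells. It rose by 2.71 ± 0.40 on the log2 scale (limma adjusted p = 4.87e-05), although the d5 Ghigh gate was negative for its reporter. In the d6 populations Hhex reached 12.17 ± 0.43 (SD, n = 3) without and 12.63 ± 0.19 with the HHEX reporter, above each of the d5 Ghigh arrays.

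**Figure D1:**
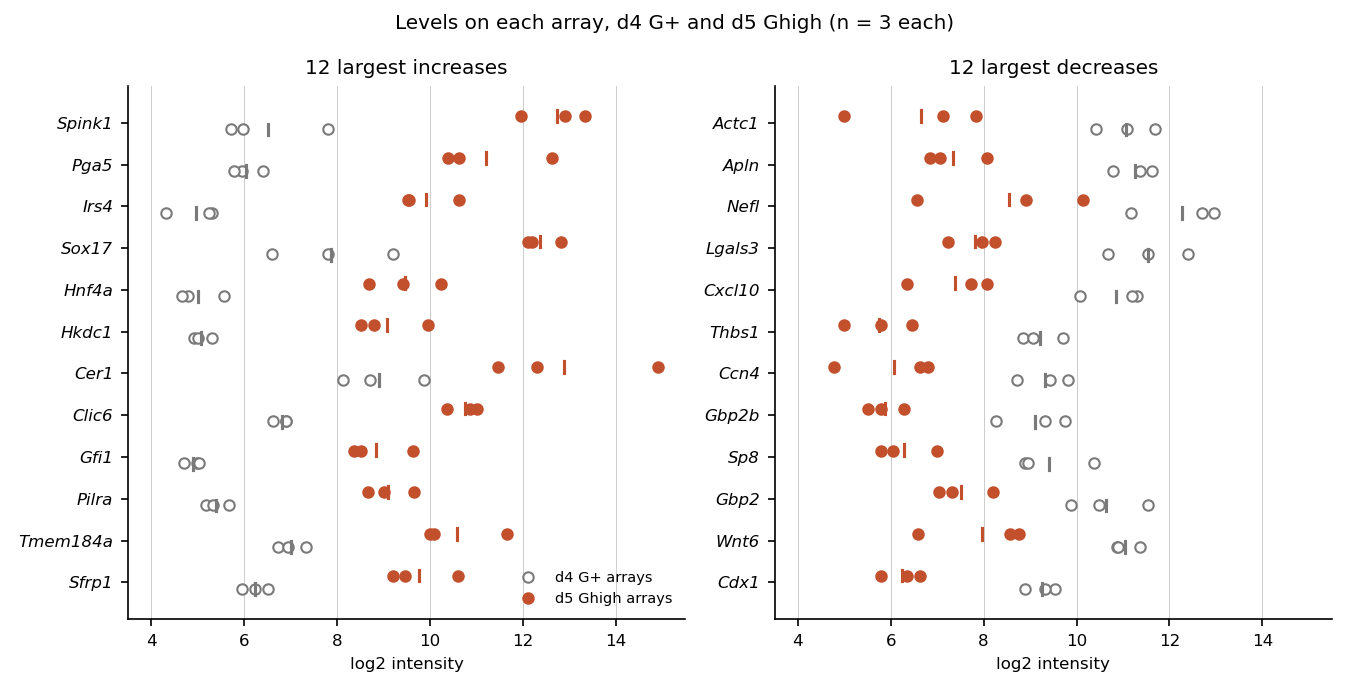
Log2 intensity on each array of d4 G+ (open grey circles) and d5 Ghigh (filled circles) for the 12 genes with the largest increases and the 12 with the largest decreases among called genes, with short vertical bars for the means of 3 arrays. The 24 genes were picked among those whose arrays did not overlap between the 2 populations. The d5 Ghigh arrays of Cer1 are the most spread of the genes that rose.

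Spink1, a trypsin inhibitor, stood at 7.82, 5.73 and 5.97 in d4 G+ cells and at 13.34, 12.92 and 11.97 in d5 Ghigh cells, an increase of 6.24 ± 0.41 (limma adjusted p = 1.43e-11) or 75.5-fold. Pga5, a pepsinogen, went from 6.42, 5.95 and 5.78 to 10.62, 10.40 and 12.63, an increase of 5.16 ± 0.45. Irs4, an adaptor of the insulin and IGF receptors, went from 5.31, 4.32 and 5.25 to 9.54, 9.56 and 10.63, an increase of 4.95 ± 0.37. The second Irs4 probe had a difference of 1.22. On the probes with array values given, no array of one population reached the range of the other. Of the other genes among the 12, the hexokinase-domain gene Hkdc1 rose by 4.01, the chloride channel family gene Clic6 by 3.94, the receptor gene Pilra by 3.71 and Tmem184a by 3.58. Gfi1, a zinc finger repressor best known from blood, was not well above background on any d4 G+ array and was at least 15.4-fold higher in d5 Ghigh cells (limma adjusted p = 4.25e-09). On the d4 G+ arrays Irs4, Hnf4a and Hkdc1 were well above background on 1 of 3. Pilra has near-identical relatives, and its probe may also read Pilrb1 and Pilrb2, which were called higher as well.

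Among 23 definitive endoderm transcription factors, 8 rose and 1 fell, and the median log2 fold change was 1.24, against -0.01 over all genes. Sox17, the HMG-box factor that directs endoderm formation, stood at 9.20, 6.60 and 7.80 in d4 G+ cells and at 12.21, 12.11 and 12.82 in d5 Ghigh cells. It rose by 4.52 ± 0.43 (limma adjusted p = 1.19e-08), and its second probe rose by 4.31. The d4 G+ arrays were farther apart than the d5 Ghigh arrays. Hnf4a, a nuclear receptor of visceral endoderm and later of liver and gut, went from 5.57, 4.79 and 4.67 to 10.25, 9.43 and 8.69, an increase of 4.45 ± 0.39 (limma adjusted p = 4.25e-09). Foxa1, a pioneer factor that opens chromatin at endoderm genes, went from 9.73, 9.27 and 10.15 to 11.84, 11.95 and 12.76, an increase of 2.46 ± 0.44 (limma adjusted p = 0.000684). Without d5 Ghigh replicate 3 its adjusted p was 0.0111, above the threshold.

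Prdm1, a repressor expressed in anterior endoderm and in germ cell precursors, rose by 1.93 ± 0.28 from between 8.36 and 8.78 to between 10.08 and 11.09. Tcf7l2, a transcription factor of the Wnt pathway, was called through 1 of its 3 probes, at 1.58 ± 0.26, while its brightest probe showed 0.76. Irx3, an Iroquois homeodomain factor also known from neurectoderm, rose by 1.59 ± 0.35 (limma adjusted p = 0.00485). The Irx3 call was lost without d4 G+ replicates 1, 2 or 3 or d5 Ghigh replicate 3 (adjusted p of 0.0202, 0.0109, 0.0353 and 0.0806), and that of Tcf7l2 without d4 G+ replicate 3 or d5 Ghigh replicate 3, where its log2 fold change was 1.38 and 1.22. Bhlhe40, a basic helix-loop-helix repressor, fell by 1.65 on the log2 scale, a call lost without d4 G+ replicate 3 or d5 Ghigh replicate 3 (adjusted p of 0.0131 and 0.0133).

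Several endoderm regulators did not pass although the arrays of the populations did not overlap. Foxa2 stood at 10.91, 11.68 and 12.20 in d4 G+ and at 12.88, 13.22 and 14.27 in d5 Ghigh cells, a difference of 1.85 ± 0.63 (limma adjusted p = 0.105). Otx2, a head organiser gene, differed by 1.44 ± 0.57 (adjusted p = 0.189) and Hesx1, a forebrain and anterior endoderm gene, by 1.45 ± 0.37 (adjusted p = 0.0177). Foxa3 had an adjusted p of 0.00708 with a log2 fold change of 1.38, under the fold threshold. Gata4 and Gata6, factors shared by all endoderm, had differences of 0.47 and 0.55. Eomes, the T-box factor that precedes endoderm, was already at 13.77 to 14.30 in d4 G+ cells and stood at 13.50 to 14.15 in d5 Ghigh cells.

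The promoters of 4 genes that rose and of 1 that fell are shown because the forkhead gene Foxa1 is among the regulators that rose. Each line gives the 250 bases before the transcription start from RefSeq (GRCm38.p6), 5′ to 3′ on the strand of the gene. Capitals mark matches to the forkhead core TGTTTNC (N is any base) on either strand. The windows are Hnf4a at chr2:163506607-163506856 (+ strand), Foxa1 at chr12:57546112-57546361 (- strand), Cer1 at chr4:82885152-82885401 (- strand), Cfc1 at chr1:34535398-34535647 (+ strand) and Snai1 at chr2:167537945-167538194 (+ strand).
Hnf4a: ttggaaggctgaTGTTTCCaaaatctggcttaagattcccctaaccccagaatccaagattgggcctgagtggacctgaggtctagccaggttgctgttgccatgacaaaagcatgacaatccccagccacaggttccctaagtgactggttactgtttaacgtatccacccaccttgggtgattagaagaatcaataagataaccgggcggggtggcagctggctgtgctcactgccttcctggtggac
Foxa1: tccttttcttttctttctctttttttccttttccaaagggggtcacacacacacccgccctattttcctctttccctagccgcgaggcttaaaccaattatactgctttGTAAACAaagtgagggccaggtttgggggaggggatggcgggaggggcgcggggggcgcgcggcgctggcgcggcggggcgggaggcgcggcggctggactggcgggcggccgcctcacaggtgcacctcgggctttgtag
Cer1: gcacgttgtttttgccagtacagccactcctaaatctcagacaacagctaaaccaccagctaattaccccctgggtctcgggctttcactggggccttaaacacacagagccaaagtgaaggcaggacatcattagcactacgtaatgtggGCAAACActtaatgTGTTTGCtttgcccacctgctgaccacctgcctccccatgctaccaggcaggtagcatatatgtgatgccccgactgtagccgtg
Cfc1: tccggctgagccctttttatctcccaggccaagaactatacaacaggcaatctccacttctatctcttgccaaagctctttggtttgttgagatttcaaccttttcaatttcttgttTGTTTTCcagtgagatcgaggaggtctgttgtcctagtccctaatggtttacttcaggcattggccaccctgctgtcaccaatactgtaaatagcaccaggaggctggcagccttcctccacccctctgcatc
Snai1: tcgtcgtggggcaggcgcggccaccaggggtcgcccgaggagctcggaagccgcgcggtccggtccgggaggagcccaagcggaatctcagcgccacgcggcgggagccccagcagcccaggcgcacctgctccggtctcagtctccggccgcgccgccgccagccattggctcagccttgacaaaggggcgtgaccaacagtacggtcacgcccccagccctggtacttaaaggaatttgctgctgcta
The Cer1 window holds 2 matches on opposite strands, the Hnf4a, Foxa1 and Cfc1 windows 1 each and the Snai1 window 0. The 5 genes were picked after their matches were seen. Over the first listed window of each gene, the core was found for 29 of 122 genes that rose (23.8%), 12 of 69 that fell (17.4%) and 4836 of 27025 in all (17.9%). The letters TAATCC, bound by bicoid-type homeodomain proteins such as GSC and OTX2, were found for 3.28% of the genes that rose, 10.1% of those that fell and 6.38% of all. Those of the core recognised by zinc fingers of the Gata family, AGATAA, were found for 13.1%, 4.35% and 10.3%. Both strands were searched for each, these shares are descriptions of letters in a window and no test was run on them.

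Of 14 measured anterior endoderm secreted factors, 4 rose and 1 fell, with a median log2 fold change of 0.52. Cer1, a secreted antagonist of Nodal and BMP, stood at 8.72, 8.13 and 9.88 in d4 G+ cells and at 11.47, 12.30 and 14.91 in d5 Ghigh cells. Its increase was 3.98 ± 0.86 (limma adjusted p = 0.00453). Cer1 varied between the d5 Ghigh arrays more than the other genes named that rose, and its call was lost without d4 G+ replicate 1, d4 G+ replicate 2 or d5 Ghigh replicate 3 (adjusted p of 0.0224, 0.0318 and 0.0636). Sfrp1, which binds Wnt ligands outside the cell, went from 6.51, 5.96 and 6.24 to 9.21, 9.47 and 10.60, an increase of 3.53 ± 0.38 (limma adjusted p = 1.78e-07). Sfrp5, its relative and a marker of foregut endoderm, rose by 2.27 ± 0.41, a call lost without d4 G+ replicate 2 (adjusted p = 0.0145). Shisa2, which holds Wnt and FGF receptors inside the cell, rose by 2.34 ± 0.35 from between 7.81 and 8.26 to between 9.56 and 11.50.

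The Wnt antagonist Dkk1 had a difference of 1.69 ± 0.57 that did not pass (limma adjusted p = 0.0995), and the Nodal antagonist Lefty1 one of 2.47 ± 0.64 (adjusted p = 0.0214), although for both the arrays of the populations did not overlap. Fst, the activin-binding protein follistatin, was the secreted factor that fell, from 12.43, 13.59 and 12.89 to 11.19, 11.30 and 11.38. Its decrease of 1.68 on the log2 scale (limma adjusted p = 0.00325) was lost as a call on leaving out any of 5 of the 6 arrays, d4 G+ replicate 1 being the exception (adjusted p between 0.0111 and 0.038).

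In the Wnt pathway 6 of 34 genes rose and 5 fell, with a median of 0.10. The genes that fell were ligands and targets. Wnt6 stood at 10.88, 10.89 and 11.37 in d4 G+ cells and at 8.57, 8.76 and 6.58 in d5 Ghigh cells, a log2 fold change of -3.08 ± 0.54 (limma adjusted p = 0.000497). Wnt8a, a ligand of the streak, went from 7.06, 8.81 and 8.19 to 5.33, 5.59 and 5.95, a change of -2.40 ± 0.38. Wnt5b, a ligand known for guiding cell movement, went from 11.73, 12.18 and 11.56 to 10.47, 10.20 and 8.63, a change of -2.06 ± 0.40. The call of Wnt6 was lost without d5 Ghigh replicate 3 (adjusted p = 0.0129) and that of Wnt5b without d4 G+ replicate 2 or d5 Ghigh replicate 3 (adjusted p of 0.0133 and 0.0299). The streak targets Cdx1 and T are described with the streak genes.

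The genes that rose were receptors and modulators. Fzd8, a frizzled receptor, was at 6.24 to 6.32 on all d4 G+ arrays and at 8.88, 8.99 and 10.44 in d5 Ghigh cells, an increase of 3.15 ± 0.42 (limma adjusted p = 1.08e-05). Fzd5, a second frizzled receptor, went from 5.85, 5.92 and 6.22 to 8.35, 8.75 and 10.28, an increase of 3.13 ± 0.46. Lgr5, a receptor for R-spondins, went from 6.82, 7.19 and 7.01 to 9.10, 9.08 and 10.42, an increase of 2.53 ± 0.36. Each of these receptors was highest on d5 Ghigh replicate 3. The remaining members that rose were the antagonists Sfrp1 and Sfrp5 and the transcription factor Tcf7l2. Feedback targets of the pathway had smaller differences that did not pass, with Axin2 at -0.68, Sp5 at -0.86 and Lef1 at -1.39 (limma adjusted p of 0.452, 0.552 and 0.021).

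In the Nodal pathway 2 of 21 genes rose and 0 fell, with a median of 0.11. Besides Cer1 the gene that rose was Cfc1 (Cryptic), an EGF-CFC co-receptor for Nodal. It went from 11.43, 10.53 and 10.53 to 13.81, 13.46 and 14.09, an increase of 2.96 ± 0.38 (limma adjusted p = 4.35e-06). The other EGF-CFC co-receptor, Tdgf1 (Cripto), was lower on every d5 Ghigh array, at 10.80 to 10.93 against 12.10 to 12.65, with a log2 fold change of -1.62 ± 0.50 that did not pass (adjusted p = 0.0649). Nodal itself differed by 0.11 and stood at 11.62 to 12.19 in d4 G+ and 11.69 to 12.60 in d5 Ghigh cells, ranges that overlap.

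**Figure D2:**
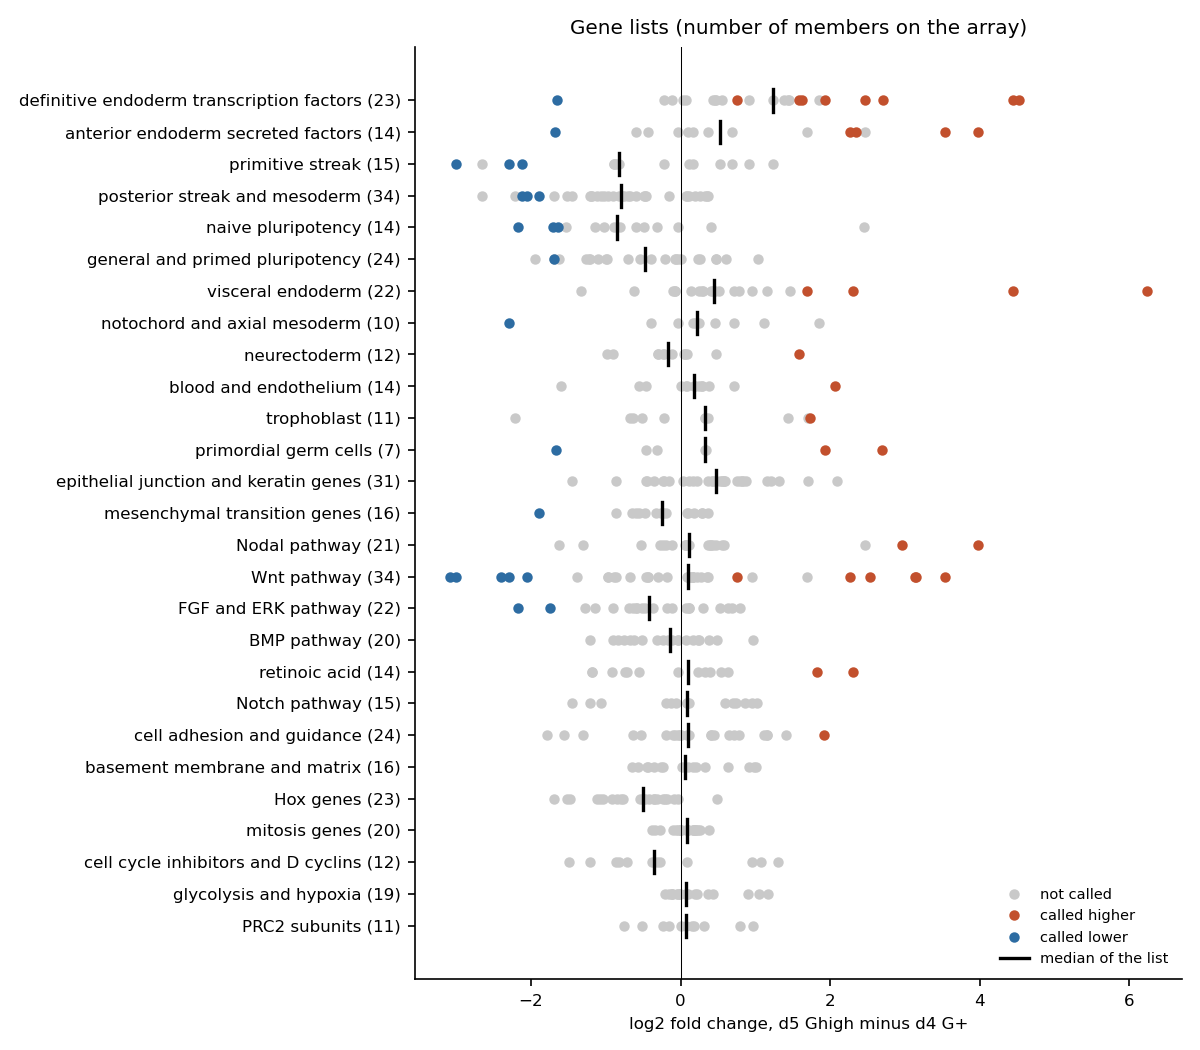
Log2 fold change (d5 Ghigh minus d4 G+) of each measured gene of 27 lists, with called genes coloured by direction, genes not called in grey and a black bar at the median of each list; the value is that of the brightest probe of a gene, so Tcf7l2, called through another probe, is drawn at 0.76. The definitive endoderm transcription factors have the highest median, 1.24, and naive pluripotency the lowest, -0.85.

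Among 15 primitive streak genes, 3 fell and 0 rose, with a median of -0.82, and among 34 genes of the posterior streak and mesoderm 3 fell and 0 rose, with a median of -0.80. Cdx1, a homeodomain factor of posterior identity, stood at 8.89, 9.53 and 9.33 in d4 G+ cells and at 5.78, 6.62 and 6.34 in d5 Ghigh cells, a log2 fold change of -3.0 ± 0.44 (limma adjusted p = 4.47e-05). T, the T-box factor that defines the streak, went from 10.97, 12.46 and 11.37 to 8.82, 9.45 and 9.64, a change of -2.30 ± 0.50 (limma adjusted p = 0.00464). The arrays did not overlap, but the call of T was lost on leaving out any array other than d4 G+ replicate 1 (adjusted p between 0.0116 and 0.0487). Mesp2, a factor of early mesoderm, fell by 2.12 on the log2 scale, from between 8.67 and 9.45 to between 6.17 and 7.47 (limma adjusted p = 0.000162). Its relative Mesp1 went from 13.11, 13.31 and 12.51 to 11.70, 11.13 and 8.13, a difference of -2.66 ± 0.72 that did not pass (adjusted p = 0.0284), with d5 Ghigh replicate 3 far below the others.

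Snai1, the repressor of E-cadherin, was the only one of 16 mesenchymal transition genes called. It stood at 11.87, 12.15 and 12.03 in d4 G+ cells and at 10.67, 10.51 and 9.18 in d5 Ghigh cells, a change of -1.89 ± 0.34 (limma adjusted p = 0.000598) whose call was lost without d5 Ghigh replicate 3 (adjusted p = 0.0151). Vimentin (Vim), N-cadherin (Cdh2) and fibronectin (Fn1) had differences of -0.56, 0.29 and -0.65. Of 31 epithelial junction and keratin genes 0 were called in either direction by limma, with 23 positive differences, 10 genes at an unadjusted p under 0.05 and a median of 0.48. Claudin 6 (Cldn6) had the largest, 2.09 ± 0.50 (adjusted p = 0.0112), and E-cadherin (Cdh1) differed by 0.82 with overlapping arrays, at 9.34, 10.80 and 10.68 against 10.30, 10.73 and 12.24.

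Of 14 naive pluripotency genes 3 fell, and of 24 genes of general and primed pluripotency 1 fell, with medians of -0.85 and -0.47. Fgf4, a growth factor of ESCs, fell by 2.18 on the log2 scale, Tdh, the threonine dehydrogenase of mouse ESCs, by 1.71 and the F-box gene Fbxo15 by 1.64. Nanog stood at 8.81, 9.79 and 9.45 in d4 G+ and at 7.10, 7.72 and 8.17 in d5 Ghigh cells, a change of -1.69 ± 0.36 (limma adjusted p = 0.00408), while its second probe had a difference of 0.28. These calls were among the least stable. That of Nanog was lost without d4 G+ replicates 2 or 3 or d5 Ghigh replicates 1 or 2 (adjusted p between 0.0119 and 0.0515), that of Fgf4 without d4 G+ replicate 2 or d5 Ghigh replicate 3 (0.019 and 0.032), and those of Tdh and Fbxo15 on leaving out any array other than d4 G+ replicate 1 (0.0102 to 0.0748). Pou5f1 (OCT4) went from 10.17, 12.46 and 11.99 to 8.78, 9.60 and 10.38, with overlapping arrays and an adjusted p of 0.0836. Dppa2 had an adjusted p of 0.000978 at a log2 fold change of -1.23, under the fold threshold. The nuclear receptor gene Nr0b1, of the naive list, differed the other way, from 5.95, 5.16 and 5.11 to 7.74, 7.84 and 8.01, by 2.45 ± 0.65, and did not pass (limma adjusted p = 0.0248).

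In the FGF and ERK pathway 2 of 22 genes fell, Fgf4 and Fgf15, and 0 rose. Fgf15 went from 8.96, 9.50 and 8.33 to 7.87, 7.87 and 5.84 and was just past the threshold (limma adjusted p = 0.00963). Its call was lost with the replicate number as a block (adjusted p = 0.0102) and without d4 G+ replicates 1 or 2 or d5 Ghigh replicate 3 (0.0375, 0.07 and 0.133). Of 20 BMP pathway and 15 Notch pathway genes 0 were called by limma (2 and 8 at an unadjusted p under 0.05), with medians of -0.15 and 0.09. In the retinoic acid list 2 of 14 rose, the retinol carrier Rbp4 by 2.30 and the receptor Rarb by 1.83, the latter under the fold threshold without d5 Ghigh replicate 3 (1.39). The second Rarb probe had a difference of 0.82. Of 24 genes of cell adhesion and guidance, the guidance ligand Sema3a rose by 1.92, a call lost without d4 G+ replicates 2 or 3 or d5 Ghigh replicate 1 (adjusted p between 0.0158 and 0.0273). The second Sema3a probe had a difference of 1.4.

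The remaining lists held no call by limma. They were the 23 Hox genes, 16 basement membrane and matrix genes, 20 mitosis genes, 12 cell cycle inhibitors and D cyclins, 19 genes of glycolysis and hypoxia and 11 PRC2 subunits, the subunits of the complex that methylates histone H3 at lysine 27. At an unadjusted p under 0.05 they held 4, 5, 2, 6, 3 and 4 genes in that order. Over all genes 0.734% were called higher and 0.458% lower. A count of 0 therefore sets none of these short lists apart, nor the epithelial, BMP and Notch lists. The mitosis genes lay between -0.38 and 0.38. The Hox genes had a median of -0.50, with 1 of 23 differences positive. The log2 of their summed intensity was 11.26 to 12.52 on the d4 G+ arrays and 9.98 to 11.49 on the d5 Ghigh arrays. Cyclin D1 (Ccnd1) had an adjusted p of 0.00358 at -1.49, and cyclin G2 (Ccng2) 0.00531 at 1.30, both under the fold threshold.

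Markers of other cell types moved with the endoderm genes in part. Of 22 visceral endoderm genes 4 rose, Spink1, Hnf4a, Rbp4 and Apoe, the last by 1.69 ± 0.31, and 0 fell. The log2 of the summed intensity of that list was 13.66 to 14.43 on the d4 G+ arrays and 15.17 to 15.80 on the d5 Ghigh arrays. Bright probes weigh most in such a sum, and Apoe alone stood at 12.20 to 13.62 and at 14.39 to 15.15. Neither Apoe nor Spink1 was confined to endoderm populations, with means of 15.33 and 11.55 in ESCs. The visceral endoderm carriers Ttr, Afp and Apoa1 were not well above background on any d4 G+ array and on 2, 1 and 3 of the d5 Ghigh arrays, at no more than 6.70, 4.91 and 5.54. The endocytic receptor Lrp2 was lower on every d5 Ghigh array (7.46 to 8.64 against 9.46 to 9.73) and did not pass (adjusted p = 0.0383). Apoe was lost as a call without d4 G+ replicate 2 or d5 Ghigh replicate 1 (adjusted p of 0.0191 and 0.0136). Whether visceral endoderm cells have a part in these values was not tested.

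In the other marker lists single genes were called. Gata1 rose by 2.07 among 14 blood and endothelium genes, while Tal1 differed by 0.01 and was well above background on 1 array of each population. Elf5 rose by 1.73 among 11 trophoblast genes, a call lost without d4 G+ replicates 2 or 3 or d5 Ghigh replicate 3 (adjusted p between 0.0134 and 0.0276). Among 7 primordial germ cell genes Prdm1 and Kit, a receptor tyrosine kinase also used on definitive endoderm, rose by 1.93 and 2.70 and Dnd1 fell by 1.66, a call lost without d4 G+ replicate 2 or d5 Ghigh replicate 1 (log2 fold change of -1.32 and -1.45). Of 12 neurectoderm genes the one called was Irx3, with Pax6 not well above background on any of the 6 arrays, and of 10 notochord and axial mesoderm genes the one called was T, with Noto well above background on 0 of 3 d4 G+ and 1 of 3 d5 Ghigh arrays. The log2 of the summed intensity was 13.15 to 13.34 in d4 G+ and 13.09 to 13.74 in d5 Ghigh cells for blood and endothelium. In the same order it was 14.97 to 15.30 and 15.10 to 15.36 for trophoblast, and 12.60 to 12.94 and 12.03 to 12.56 for neurectoderm. For notochord it was 12.17 to 13.29 and 13.13 to 14.48, and for germ cells 11.93 to 12.30 and 12.53 to 13.50.

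The remaining genes among the 12 largest decreases had other roles. Actc1, the cardiac actin, stood at 10.41, 11.68 and 11.08 in d4 G+ cells and at 5.00, 7.12 and 7.84 in d5 Ghigh cells, a log2 fold change of -4.40 ± 0.69 (limma adjusted p = 0.000123). Apln, the ligand of the apelin receptor that guides mesendoderm movement, went from 10.79, 11.63 and 11.36 to 7.06, 8.08 and 6.84, a change of -3.93 ± 0.46 (adjusted p = 1.11e-06). Lgals3, a galectin, fell by 3.72 on the log2 scale, the chemokine Cxcl10 by 3.48, the zinc finger factor Sp8 by 3.13 and the matricellular gene Ccn4 by 3.26. The second Sp8 probe had a difference of -0.41. Gbp2 and Gbp2b, guanylate-binding proteins, fell by 3.11 and 3.25, and their probes may read each other. The neurofilament gene Nefl changed by -3.75 ± 0.75 and thrombospondin 1 (Thbs1) by -3.46 ± 0.65. The call of Nefl was lost without d4 G+ replicates 2 or 3 or d5 Ghigh replicate 1 (adjusted p of 0.0187, 0.0185 and 0.0454), and that of Thbs1 without d5 Ghigh replicate 1 (0.0135).

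**Figure D3:**
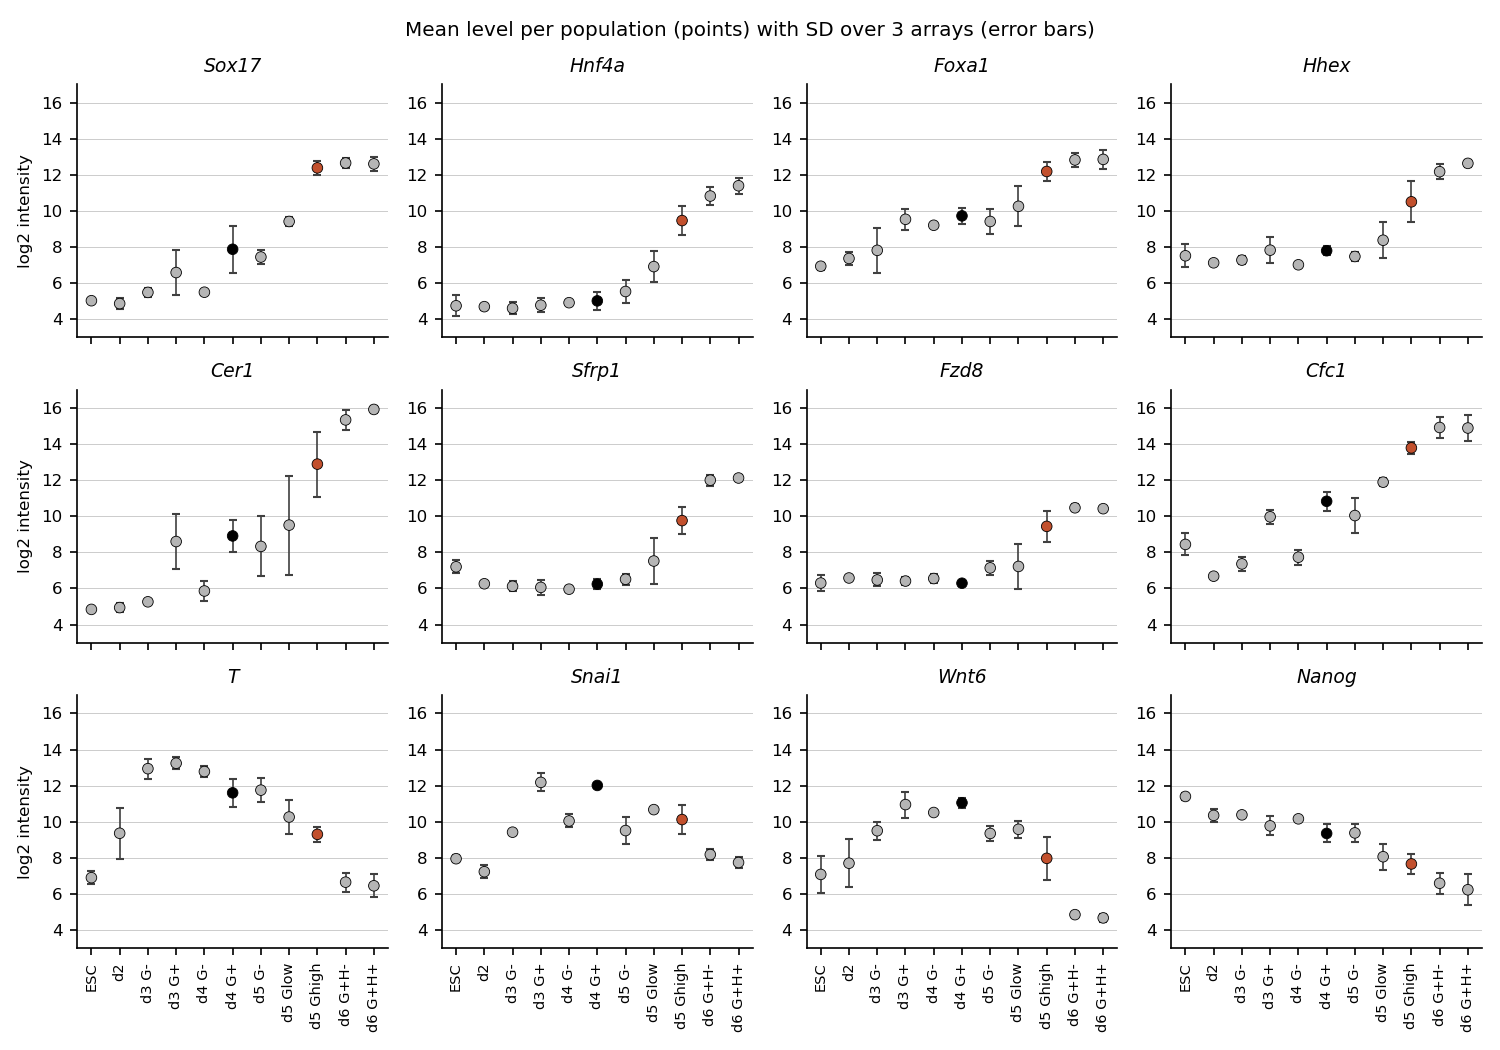
Mean log2 intensity (points) with SD over 3 arrays (error bars) of 12 genes in the 11 untreated populations, with d4 G+ in black and d5 Ghigh in colour. Sox17 in d5 Ghigh cells, at 12.38, is near its d6 levels of 12.65 and 12.60, whereas Hnf4a and Sfrp1 are higher again at d6 and T, Snai1 and Wnt6 lower again.

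Set against the populations on either side, the genes differed in how far the step had taken them. Sox17 was at 6.58 ± 1.27 in d3 G+, 7.87 in d4 G+, 12.38 in d5 Ghigh and then 12.65 ± 0.29 (d6 G+H-) and 12.60 ± 0.41 (d6 G+H+; SD, n = 3), so d5 Ghigh and d6 differed by less than their spread. Hnf4a was at 9.46 in d5 Ghigh and at 10.82 ± 0.52 and 11.39 ± 0.45 at d6, and Sfrp1 at 9.76 and then at 12.12 ± 0.16 in G+H+ cells. T was highest in d3 G+ cells, at 13.24 ± 0.34, and after 9.30 in d5 Ghigh stood at 6.65 ± 0.52 and 6.45 ± 0.63 at d6, close to its 6.90 ± 0.35 in ESCs. Wnt6, at 7.97 in d5 Ghigh cells, was not well above background on any array of d6 G+H- or G+H+ cells. Actc1 was lower in d5 Ghigh cells, at 6.65, than in either d6 population, at 8.28 ± 0.69 and 9.18 ± 0.54. These d6 values were not tested against d5 Ghigh here.

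The step from d4 G+ to d5 Ghigh was set against the d4 to d5 step of G- cells, measured on 3 arrays each day. The difference was tested as an interaction in the same fit. On the GSC side the gate changes together with the day, and d5 Glow cells have no part in this test. In G- cells 6 genes were called higher (0.0286%) and 0 lower by limma, with 4115 probes at an unadjusted p under 0.05. The increase from d4 G+ to d5 Ghigh was larger than that of G- cells for 33 genes (0.157% of those tested). The change was lower for 2 (0.00954%). Irs4 rose by 4.28 ± 0.52 more than in G- cells, where it changed by 0.67 (limma adjusted p = 1.87e-05). Hnf4a, with 0.62 in G- cells, had a difference between the steps of 3.83 ± 0.56 (adjusted p = 0.000333), and Spink1, with 2.55, one of 3.69 ± 0.58 (adjusted p = 0.00125). Sfrp1 also passed, with a difference of 2.97. Sox17 increased by 1.95 in G- cells as well, and its difference between the steps, 2.56 ± 0.60, did not pass at the brightest probe (adjusted p = 0.0828), though its second probe did at 2.85. For Cer1 the steps were 3.98 and 2.47 and for Cfc1 2.96 and 2.31, with adjusted p of 0.961 and 0.965. None of T, Snai1, Mesp2, Nanog, Wnt5b, Wnt6 and Wnt8a passed the interaction (adjusted p of 0.246 or more). The count of 33 was 16 without d5 Ghigh replicate 3, 51 with a replicate block and 2 in a fit of the 12 arrays alone.

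**Figure D4:**
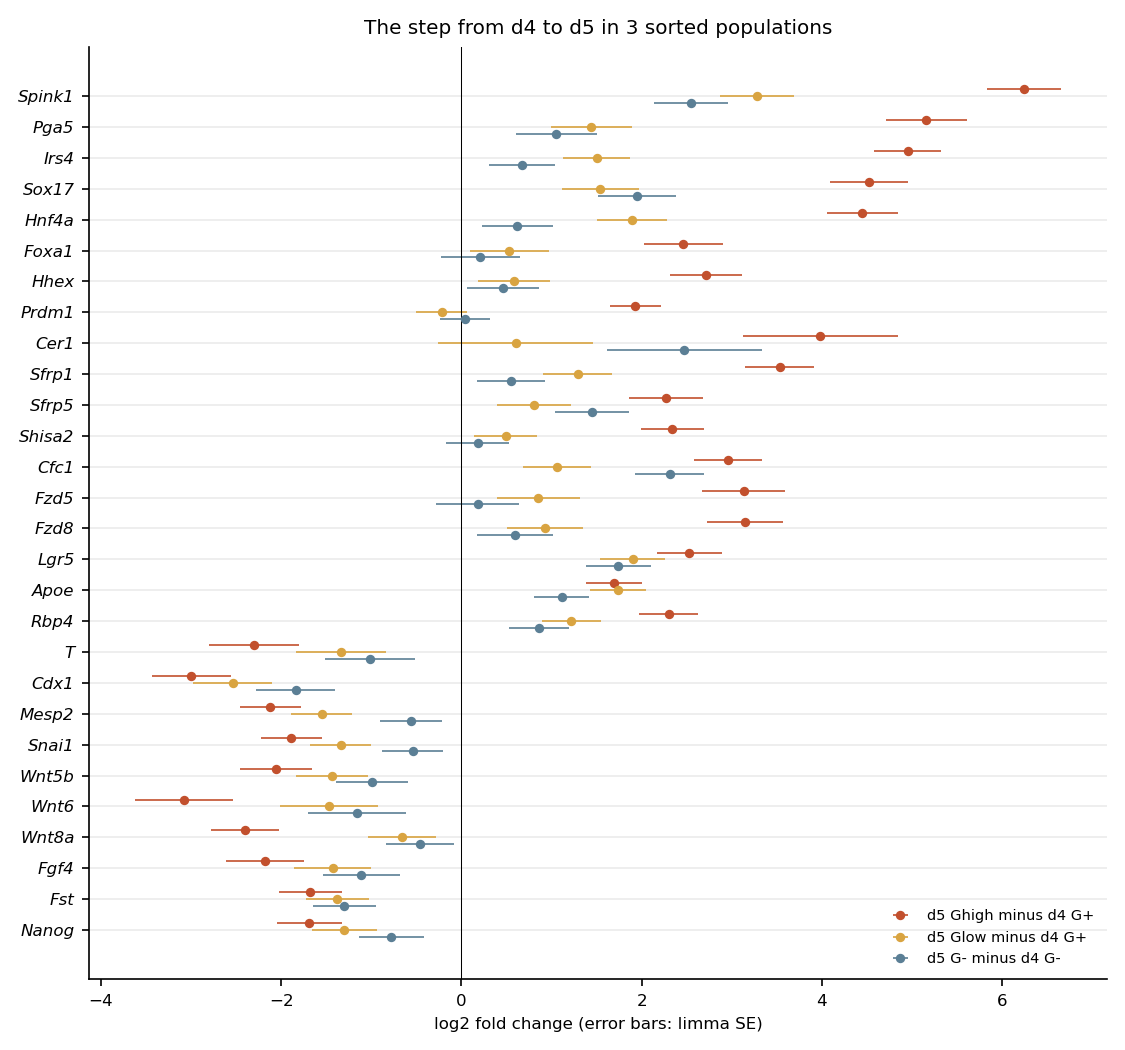
Log2 fold change with its limma SE of 28 genes in d5 Ghigh minus d4 G+, d5 Glow minus d4 G+, and d5 G- minus d4 G- cells. Points of the first set lie farthest from 0 for all 28 genes except Apoe, at 1.69 against 1.74 in Glow cells; the first and second sets share the d4 G+ arrays.

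At d5 the culture also held Glow cells, sorted for a low GSC signal, which allows a comparison on a single day. By limma 52 genes were higher in d5 Ghigh than in d5 Glow cells (0.248%) and 7 lower (0.0334%). Sox17 was at 9.41 ± 0.27 in Glow cells (SD, n = 3), a difference of 2.97 ± 0.43 (SE; limma adjusted p = 0.000129). Hnf4a differed by 2.55 ± 0.39 (adjusted p = 0.000407), Prdm1 by 2.16 ± 0.28 (adjusted p = 3.19e-05), Sfrp1 by 2.24, Hhex by 2.13, Fzd8 by 2.22, Shisa2 by 1.85 and Cfc1 by 1.90. The calls of Sfrp1, Hhex, Fzd8 and Shisa2 were lost without d5 Glow replicates 1 or 2 or d5 Ghigh replicate 3, and that of Cfc1 on leaving out any 1 of the 6 arrays (adjusted p up to 0.0354, 0.0918, 0.0959, 0.107 and 0.086). Gsc, the sorted gene, differed by 2.26 and did not pass (limma adjusted p = 0.0145). Cer1, with an SD of 2.74 over the Glow arrays, did not pass (3.39, adjusted p = 0.0661), and neither did Apoe at -0.05 and Lgr5 at 0.62.

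Few of the genes that fell between d4 G+ and d5 Ghigh cells passed between the d5 populations, where 7 genes were lower in all. None of the 12 largest decreases passed there (limma adjusted p of 0.041 or more), whether streak genes or others such as Actc1 and Apln. Prickle1, Tspan2, Tub and Enpp2 fell and passed there. Streak genes were among those that did not pass. T differed by -0.96, Cdx1 by -0.46, Snai1 by -0.55, Mesp2 by -0.57 and Wnt5b by -0.62 (limma adjusted p of 0.593 or more). The ligands Wnt8a and Wnt6 had larger differences, -1.74 and -1.61 (limma adjusted p of 0.0246 and 0.257). The comparison of d5 Glow with d4 G+ cells shares the d4 G+ arrays. In it 20 genes were called higher (0.0954%) and 10 lower (0.0477%). There T, Cdx1, Snai1, Mesp2 and Wnt5b changed by -1.34, -2.54, -1.34, -1.55 and -1.44, Wnt8a by -0.66 and Wnt6 by -1.47. Between d5 Ghigh and d5 Glow, a fit of their 6 arrays alone with limma called 0 genes in either direction, with 3387 probes at an unadjusted p under 0.05. The counts between the d5 populations moved with single arrays. Genes higher in Ghigh were 26 without d5 Ghigh replicate 3, 28 without d5 Glow replicate 2 and 105 without d5 Glow replicate 3. Genes lower were 26 without d5 Glow replicate 3, 1 without d5 Glow replicate 2, and 4, 4 and 2 without d5 Ghigh replicates 1, 2 and 3.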

How the data were processed

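Total RNA of ESCs, unsorted day 2 cells, the sorted populations and the inhibitor experiment was hybridised to Agilent one-colour arrays. There were 3 independent experiments for each of 14 groups. The authors background-corrected the intensity values (normexp, offset 10) and quantile-normalised them, and deposited log2 intensity values for 55681 probes. Probes were matched to 20972 symbols through RefSeq accessions; 26558 probes had no such accession. The deposited scanner intensity files served for background marks, slides and recomputed values. Differences were fitted with limma 3.58.1 (R 4.3.3, statmod 1.5.0) with 1 mean per group over 42 arrays and Benjamini-Hochberg adjustment over all probes. The fit was tested on simulated data. Named genes were the 12 largest changes in each direction that held in all 9 pairs of arrays, the reporter genes and all called list members; other list members were named for the range. A called gene of the lists is not reported here. Members and lists were chosen with earlier results of these data known. Replicate numbers may pair the experiments, which the sample titles do not state. Same-numbered d4 G+ and d5 Ghigh arrays deviated together (r of 0.23, 0.17 and 0.40 across probes), although replicates 1 and 2 also shared slides. The main fit did not use this pairing. The number of arrays limits the precision. Alternatives covered background correction, scaling, filters, blocks, weights, thresholds and single arrays left out.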

Additional observations from a re-analysis of the deposited data

Results flagged for a closer look

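The step from d4 G+ to d5 Ghigh, in which the gate changes together with the day, was tested against the d4 to d5 step of G- cells. By a limma test of the difference itself, the step was larger for 33 genes and lower for 2. The 2 were Pkp1, a desmosomal plakophilin (-1.85, adjusted p = 0.00229), and Sowahd (-2.15, adjusted p = 0.0035). Among the named genes the difference in log2 fold change was 4.28 for Irs4, 4.11 for Pga5 (adjusted p = 0.000972), 3.83 for Hnf4a, 3.81 for Hkdc1 (adjusted p = 0.00125) and 3.69 for Spink1. It was 3.51 for Gfi1 (adjusted p = 0.000212), 3.42 for Clic6 and 3.26 for Pilra (adjusted p = 1.87e-05 for both), 3.29 for Tmem184a (adjusted p = 0.00479) and 2.97 for Sfrp1 (adjusted p = 0.00574). The call of Hkdc1 was lost without d5 Ghigh replicate 3, and those of Tmem184a and Sfrp1 on leaving out any of 7 and 8 of the 12 arrays (adjusted p up to 0.0379 and 0.0456). Groups of 3 arrays were not tested for outlying samples.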

How the results depend on the processing

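None of the named genes changed direction under the alternatives run for them; directions of the other genes were not compared. For d5 Ghigh against d4 G+ (154 higher, 96 lower), the counts were 102 and 56 with a normexp offset of 50, 6 and 0 in a fit of the 6 arrays, 405 and 336 at an adjusted p of 0.05 and a log2 fold of 1, 442 and 295 without a fold threshold, and 75 and 46 with only replicates 1 and 2, an alternative chosen after seeing the data. Scaling to the 75th percentile gave 226 and 96. Leaving out 1 array gave 107 to 176 and 61 to 108. With the replicate block the counts were 171 and 125, and 22 and 14 in the 6 arrays alone. Over all arrays the block ended 1 call of the named genes in this comparison, Fgf15. Of 56 calls of the named genes, 53 were lost in the fit of the 6 arrays alone, Spink1, Sox17, Hnf4a and Hhex among them. With only replicates 1 and 2, 23 were lost, among them Prdm1, Shisa2, Gata1 and Gbp2. The cause of these changes was not tested.

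For the difference between steps (33 and 2), the counts were 51 and 5 with the replicate block, 2 and 0 in a fit of the compared arrays, and 64 and 10 at an adjusted p of 0.05. The lower count was 0 with an offset of 50 or the 75th percentile, 1 without background correction, and 5 with only probes well above background, slide as a fixed or random block, or 1 probe per gene. Leaving out 1 array gave 16 to 39 and 0 to 5. For d5 Ghigh against d5 Glow (52 and 7), they were 0 and 0 in a fit of the compared arrays, 94 and 39 with array weights, 117 and 40 at an adjusted p of 0.05, 80 and 15 without a fold threshold, and 66 and 10 with the replicate block. The lower count was 1 with an offset of 50, 2 without background correction or with the 75th percentile, and 13 with slide as a random block. Leaving out 1 array gave 26 to 105 and 1 to 26. Signal over background limits the fold changes of dim genes, with 7 of the 154 genes that rose not well above background on any d4 G+ array and 1 of the 96 that fell, Prune2, on no d5 Ghigh array.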

Other observations

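The genes given here are single genes outside the lists, picked after their values were seen, and stand for no group. Of genes known to be induced by interferon, the proteasome subunit Psmb8 fell by 2.40 on the log2 scale, the GTPase Irgm1 by 2.34, the ISG15-conjugating enzyme Ube2l6 by 2.28 and Oasl2 by 2.18. Ube2l6 stood at 9.72, 10.02 and 10.36 in d4 G+ and at 7.54, 7.93 and 7.78 in d5 Ghigh cells. Muscle and contractile genes changed in both directions. Tagln was lower by -2.76, Cnn1 by -2.75 and the myosin light chain Myl9 by -2.57 (limma adjusted p of 0.000327, 0.000802 and 9.31e-05). Tagln went from 14.87, 14.75 and 14.76 to 11.71, 12.61 and 11.80. The coactivator Myocd rose by 2.50, Smtnl2 by 2.41 and the troponin Tnnt1 by 2.27 (limma adjusted p of 9.69e-06, 5.26e-06 and 0.000129).

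The glucokinase regulator Gckr went from 5.11, 5.01 and 5.22 to 7.95, 7.93 and 9.50, an increase of 3.34, and Ambp, Tcn2 and the coagulation factor gene F5 rose by 2.21, 2.00 and 1.91. Lect2 was uneven, at 7.84, 7.45 and 5.43 on the d5 Ghigh arrays against 5.01, 4.79 and 5.14. Of junction and polarity genes outside the epithelial list, Tjp3 rose by 2.21 and the Crumbs gene Crb3 by 2.00, while the desmosomal gene Pkp1 fell, from 7.30, 7.40 and 7.11 to 4.50, 5.61 and 5.21, a change of -2.16 (limma adjusted p = 5.6e-08). The acyltransferase Porcn, which Wnt ligands need for secretion, rose by 1.70, while the ligand Wnt10a went from 6.71, 8.16 and 7.45 to 4.50, 5.11 and 4.99.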
